A study of Mus musculus with 6 samples.

Results

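Cholesterol and fatty acid synthesis genes were followed in mouse embryonic stem cells, the cultured pluripotent cells of the early embryo, treated with vehicle or with 4OHT. The set held 33 gene symbols chosen by function: enzymes of sterol synthesis, the proteins that control SREBP transcription factors, a sterol carrier, and enzymes of fatty acid synthesis and desaturation. Of these, 31 were measured and all 31 were among the 14458 genes tested, of 23999 gene symbols in the count table. Sc4mol is an older symbol of Msmo1 and was counted under the latter, and Idi1 was not analysed here.

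Both groups were labelled as murine ESC carrying a floxed element called -5 together with exogenous mNanogV5, a tagged Nanog copy. The vehicle group (n = 3) received ethanol for 6 days and the other group (n = 3) received 4OHT, 4-hydroxytamoxifen, for the same 6 days (a ligand that activates ligand-dependent Cre). The labels do not name a Cre. Both arms carried the floxed element and the tagged copy, so an effect of the compound itself cannot be told apart from an effect of recombination. The labels give neither the parental line nor a clone, and they do not say that the samples came from separate cultures, so p-values measure the spread between these samples only.

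The libraries held 20030423 to 55194644 counts, apart from 4OHT replicate 2 with 515388. In that shallow library 1 read was worth 1.91 CPM (read counts scaled to library size, with TMM factors), the members had 0 to 455 reads, and 3 reads stood for 5.73 CPM. Counts under the Nanog symbol went from 644 ± 14.5 CPM (SD, n = 3) in vehicle to 181 ± 11.5 CPM (SD, n = 3) in 4OHT cells. Whether they include reads of the tagged Nanog copy was not tested. Pou5f1 was at 1280 ± 12.9 and 1120 ± 52.7 CPM and Sox2 at 787 ± 27.6 and 884 ± 34.5 CPM. The 10 stem cell markers checked had reads in every library, with summed levels of 6690 to 6900 CPM in vehicle and 6030 to 6400 CPM in 4OHT samples. Of 16 tested primitive and visceral endoderm markers 11 rose and 5 did not pass (edgeR), and the sum of the 20 listed was 520 to 524 CPM in vehicle and 680 to 704 CPM in 4OHT samples. Gata6 stood at 0.711 ± 0.148 and 11.3 ± 0.875 CPM and Sox17 at 0.306 ± 0.176 and 2.08 ± 1.87 CPM. In the shallow library Sox17 had 0 reads, and in 4OHT replicates 1 and 3 it stood at 2.61 and 3.62 CPM. Ttr, a defining visceral endoderm product, had no read in any library, and Afp, another, averaged 0 CPM in vehicle and 0.0231 CPM in 4OHT cells. Fibroblast markers summed to 35.3 to 37 CPM and 26.3 to 40.1 CPM, with Col1a1 at 1.66 and 1.85 CPM and Dcn at 0.0293 and 0 CPM. The sum of 40.1 CPM was that of the shallow library, while 4OHT replicates 1 and 3, at 26.3 and 28.7 CPM, lay below all vehicle samples. Of the 7 tested Col5a2 was higher (0.718 ± 0.194 against 3.99 ± 1.51 CPM) and Thy1 lower (15.9 ± 0.52 against 6.67 ± 0.874 CPM). The part of these marker shifts in the lipid gene results was not tested. In bulk RNA of this kind, fewer cells that express a gene and less of its RNA per cell cannot be told apart.

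Cells build cholesterol from acetyl-CoA through mevalonate, farnesyl diphosphate, squalene and lanosterol, and build fatty acids from the same precursor with acetyl-CoA carboxylase and fatty acid synthase. The genes of both routes are classic targets of the SREBP factors, which SCAP carries out of the endoplasmic reticulum when sterols are low and which INSIG proteins hold back when sterols are high. SREBPs act on promoters together with NF-Y, which binds CCAAT boxes, and with Sp1.

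Promoter sequence was examined because these genes share known regulators. RefSeq promoters on GRCm38.p6, which is not the mm9 build named for the counts, were matched by symbol for 24 of the 31 genes. Fads1, Fdft1, Fdps, Scd1, Scd2, Sqle and Stard4 had no match. Searched were the core of the sterol regulatory element (TCACNCCAC), the E-box (CACGTG), the NF-Y box (CCAAT) and the Sp1 box (GGGCGG), each on both strands from 250 bases before to 50 bases after the start. CCAAT was found for 19 of 24 members (79.2%) and for 42.9% of 10646 tested genes with a promoter. By single promoters, it was in 20 of 32 member promoters and in 37.4% of all 32851. The Sp1 box was found for 20 of 24 members (83.3%) against 68.7% of tested genes, and the E-box for 5 of 24 (20.8%) against 11.8%. The sterol element core occurred in the Hmgcs1 promoter alone of these 24, and in 1.47% of tested genes. A gene with several promoters has more chances of a match, and a match is a string of letters, not a shown binding site. Only these exact strings were searched, so a missing match does not show that an element is missing.

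The 250 bases before the start are printed for Hmgcs1, the only member that holds the sterol element core, and for 3 genes from other roles that were picked after their values were seen: Msmo1 and Insig1, which fell, and Fasn, which rose. Capitals mark the sterol element core and CCAAT, which reads ATTGG on the other strand. They lie at chr13:119690101-119690350 (plus strand), chr8:64733579-64733828 (minus), chr5:28071162-28071411 (plus) and chr11:120824548-120824797 (minus) of GRCm38.p6, each shown 5′ to 3′ along its gene.
Hmgcs1: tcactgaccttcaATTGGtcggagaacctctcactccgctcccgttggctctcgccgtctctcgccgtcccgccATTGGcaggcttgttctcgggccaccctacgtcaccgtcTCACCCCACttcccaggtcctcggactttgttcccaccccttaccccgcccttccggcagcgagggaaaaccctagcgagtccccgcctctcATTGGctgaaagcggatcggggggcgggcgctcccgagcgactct
Msmo1: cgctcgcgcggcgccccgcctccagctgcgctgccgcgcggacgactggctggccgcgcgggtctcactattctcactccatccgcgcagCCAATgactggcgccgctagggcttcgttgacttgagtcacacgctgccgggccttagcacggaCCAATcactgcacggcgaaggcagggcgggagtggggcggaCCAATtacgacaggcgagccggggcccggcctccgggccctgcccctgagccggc
Insig1: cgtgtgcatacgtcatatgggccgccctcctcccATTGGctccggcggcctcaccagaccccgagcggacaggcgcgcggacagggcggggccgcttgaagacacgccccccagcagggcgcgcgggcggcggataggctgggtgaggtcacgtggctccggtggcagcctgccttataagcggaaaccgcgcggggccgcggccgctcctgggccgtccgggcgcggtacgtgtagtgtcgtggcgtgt
Fasn: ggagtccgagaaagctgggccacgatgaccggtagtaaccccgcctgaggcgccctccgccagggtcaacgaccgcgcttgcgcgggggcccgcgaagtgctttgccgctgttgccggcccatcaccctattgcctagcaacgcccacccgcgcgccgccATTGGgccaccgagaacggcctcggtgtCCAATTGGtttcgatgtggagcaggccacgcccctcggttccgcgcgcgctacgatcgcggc
The printed Hmgcs1, Msmo1 and Fasn promoters hold 3 CCAAT boxes each, of which 2 overlap on opposite strands in Fasn, and the Insig1 promoter holds 1. CCAAT was found for 10 of 11 members that fell, 1 of 2 that rose and 8 of 11 that did not pass.

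After 4OHT, 15 of the 31 members were lower, 2 were higher and 14 did not pass the test (edgeR's quasi-likelihood test, Benjamini-Hochberg adjusted p under 0.05 over all 14458 genes). That is 54.8% of members called, beside 22.4% of all tested genes; 10.5% of all genes were lower and 11.9% higher. The median log2 fold change of the members was -0.22, beside 0 for all tested genes. All changes were modest: the members lay between -0.58 for Scd1 and 0.29 for Fasn and Elovl6. The 3 4OHT values lay below all 3 vehicle values for 15 members and above them for 3, while 16.5% and 14.7% of all genes did so. Of the 17 called members 9 kept the call under all 13 alternatives tried: Scd1, Scd2, Pmvk, Dhcr7, Msmo1, Fdft1 and Acly as lower, Fasn and Elovl6 as higher. DESeq2 called these 7 lower and 2 higher, and called 13 lower without 4OHT replicate 2, where edgeR called 14. Leaving out each other library in turn gave 10 (without vehicle replicate 3) to 19 (without 4OHT replicate 3) lower members, and 2 higher in each case. Of all genes in the same fits, 7.87% were lower without vehicle replicate 3 and 13.9% without 4OHT replicate 3. DESeq2 called 1.9% of all genes lower with all libraries and 5.35% without 4OHT replicate 2.

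**Figure D1:**
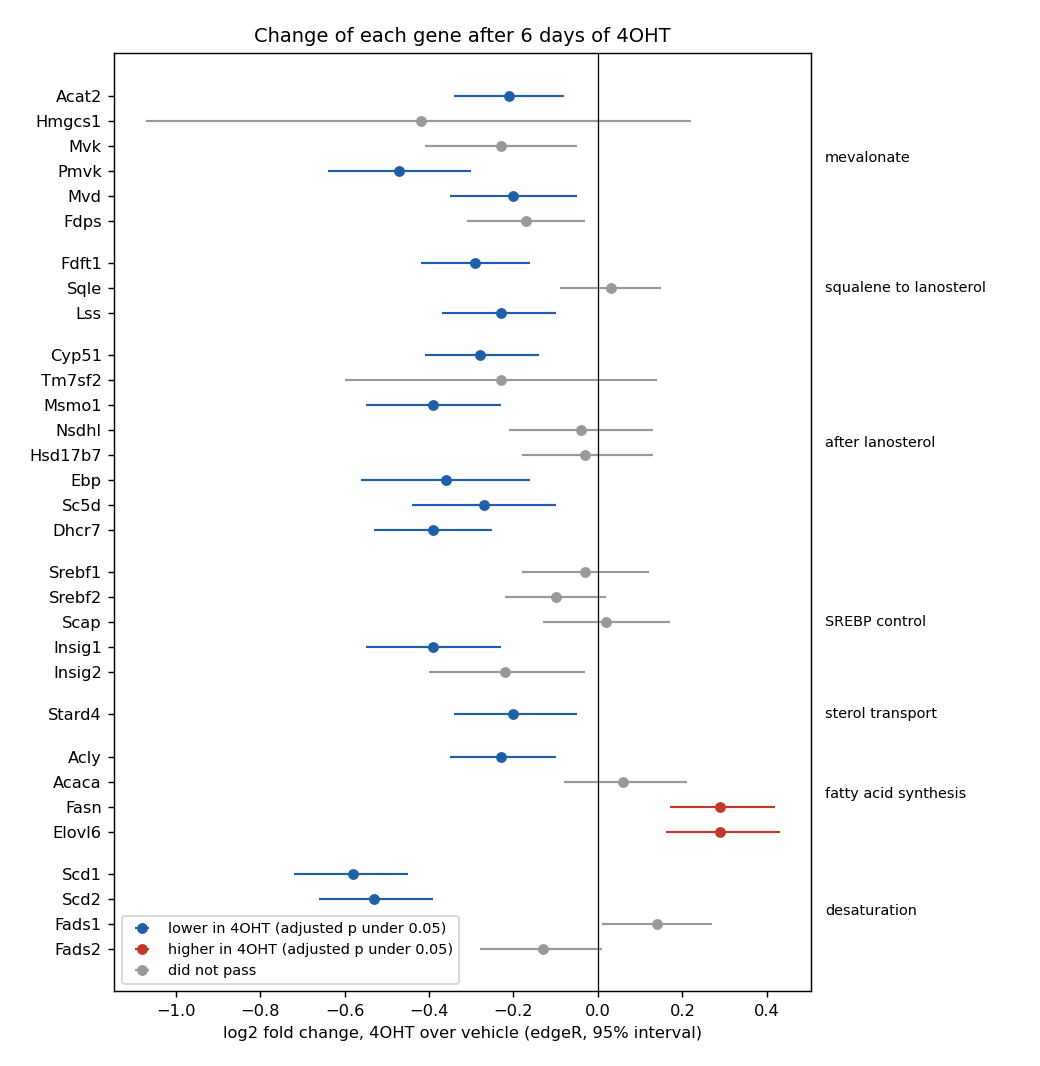
The log2 fold change of 4OHT over vehicle is plotted for the 31 genes, grouped by role, with its 95% interval from edgeR; blue marks genes that fell, red genes that rose and grey genes that did not pass. Most sterol genes lie left of 0, Scd1 (-0.58) and Scd2 (-0.53) farthest among those that fell, while Fasn and Elovl6 (both 0.29) lie to the right.

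The sterol synthesis enzymes fell or did not pass, and none rose. Of 17 measured enzymes from Acat2 to Dhcr7, 10 fell and 7 did not pass, with a median log2 fold change of -0.23 (0 were higher by unadjusted p under 0.05, and 0 by DESeq2). Of the 10 that fell in edgeR, DESeq2 called only Pmvk, Fdft1, Msmo1 and Dhcr7 lower. The summed level of the 17 enzymes was 800, 804.6 and 854.9 CPM in vehicle replicates 1 to 3 and 684.1, 721.7 and 725.5 CPM in 4OHT replicates 1 to 3. The groups did not overlap, at 819.8 ± 30.5 and 710.4 ± 22.9 CPM (SD, n = 3 each). The summed level of the 8 fatty acid enzymes was 2102, 2056 and 2159 CPM against 2021, 2005 and 2098 CPM, and there the groups overlapped.

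**Figure D2:**
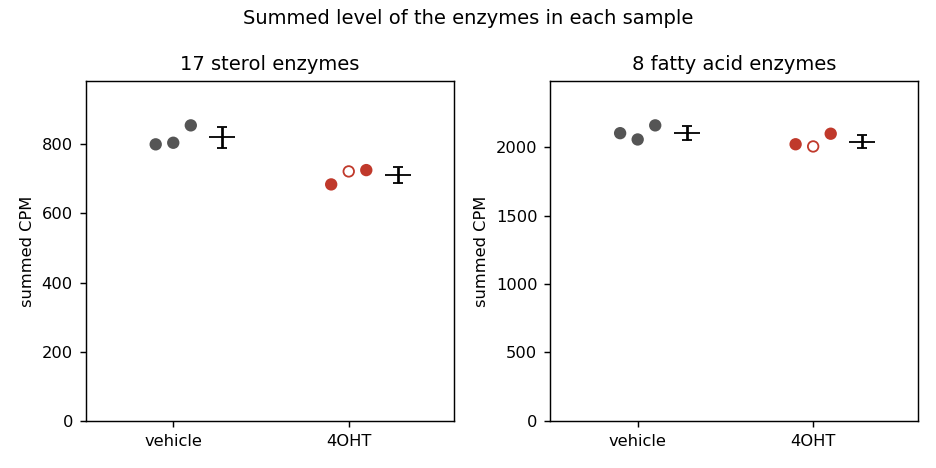
Summed CPM of the 17 sterol enzymes (left) and the 8 fatty acid enzymes (right) is drawn for each sample, with the mean and SD of 3 samples as a bar and the shallow 4OHT replicate 2 as an open circle. The sterol sums of the 4OHT samples (684.1 to 725.5) lie below those of all vehicle samples (800 to 854.9), whereas the fatty acid sums overlap.

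In the mevalonate steps 3 of 6 genes fell (1 without vehicle replicate 3, and 5 in the blocked fit), and Pmvk, the phosphomevalonate kinase, had the smallest adjusted p. It stood at 29.4, 27.5 and 29.5 CPM in vehicle and at 19.5, 21 and 22.4 CPM in 4OHT replicates 1 to 3. All 4OHT samples were below all vehicle samples, and the gene fell to 72.1% of vehicle (log2 fold change -0.47, SE 0.08, edgeR adjusted p = 0.000182). Acat2, the cytosolic thiolase that opens the route, stood at 88.3, 88.9 and 94.7 CPM in vehicle and 75.2, 84 and 81 CPM in 4OHT samples. These groups did not overlap either, and Acat2 fell to 86.5% (edgeR adjusted p = 0.0208). Acat3 matches at least 50% of the Acat2 transcript at 95% identity or more, so some reads can belong to it; Acat3 itself was at 168 ± 9.49 and 165 ± 12 CPM. The call for Acat2 was lost without vehicle replicate 3 (edgeR adjusted p = 0.129) and without 4OHT replicate 1 (0.0783). DESeq2 did not call Acat2 (adjusted p = 0.21).

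Mvd, which makes isopentenyl diphosphate, was close to the limit. Its values were 36.4, 35.6 and 35.5 CPM in vehicle and 32, 38.2 and 29.9 CPM in 4OHT samples, so that the shallow library was the highest of all 6. The gene was called lower at 87.2% of vehicle (edgeR adjusted p = 0.0493). It was not called without vehicle replicate 1, 2 or 3 (edgeR adjusted p = 0.118, 0.113 and 0.119) or 4OHT replicate 3 (0.132). DESeq2 did not call it either (adjusted p = 0.615). Mvk, mevalonate kinase, stood at 21.8, 20.3 and 21.7 CPM against 17, 15.3 and 19.7 CPM, and Fdps, which makes farnesyl diphosphate, at 70.7, 74.8 and 81.4 CPM against 65.4, 72.6 and 68.6 CPM. Neither passed (log2 fold changes -0.23 and -0.17, edgeR adjusted p = 0.0589 and 0.0832). Blocking on replicate number let both pass (edgeR adjusted p = 0.00986 and 0.0204). Without 4OHT replicate 3 the values were 0.00278 for Mvk and 0.0242 for Fdps, and without vehicle replicate 1 that of Fdps was 0.0333. The Fdps value is uncertain, since 77.4% of its exon bases overlap the same-strand gene Gm43738 and 5 genes match its transcript closely. Hmgcs1, HMG-CoA synthase, had only 14 to 29 reads in the 5 deep libraries and 0 in the shallow one, and how reads were assigned at this locus could not be checked. Its values ran from 0.548 to 0.697 CPM in vehicle and were 0.384, 0 and 0.555 CPM in 4OHT replicates 1 to 3, and its interval of -1.07 to 0.22 spans both directions.

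At the step from farnesyl diphosphate to lanosterol, Fdft1 and Lss fell and Sqle did not pass (1 fell without vehicle replicate 3). Fdft1, squalene synthase, stood at 92.9, 95.3 and 101 CPM in vehicle and 76.1, 87.8 and 80.9 CPM in 4OHT samples, with no overlap. It fell to 81.9% (log2 fold change -0.29, SE 0.06, edgeR adjusted p = 0.00223). Exons of Ctsb on the opposite strand overlap 20.9% of its exon bases, and Ctsb stood at 105 ± 4.95 and 111 ± 8.11 CPM. Lss, lanosterol synthase, went from 63.7, 60.7 and 66.5 CPM to 52.9, 51.6 and 55.9 CPM and fell to 85.1% (edgeR adjusted p = 0.0128, and 0.0871 without vehicle replicate 3). DESeq2 did not call Lss (adjusted p = 0.202). Sqle, squalene epoxidase and a rate-setting enzyme of the route, was at 105, 101 and 106 CPM in vehicle and 105, 111 and 108 CPM in 4OHT samples. Its log2 fold change of 0.03 had a 95% interval of -0.09 to 0.15, which leaves out a fall as large as that of Fdft1.

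Among the 8 enzymes that turn lanosterol into cholesterol, 5 fell (2 in DESeq2, and 3 with quantile normalization in limma-voom). Msmo1, the methylsterol monooxygenase, stood at 68.7, 71.4 and 80.2 CPM in vehicle and 52.4, 45.8 and 60.5 CPM in 4OHT samples. Every 4OHT sample was lower than every vehicle sample, and the level was 76.1% of vehicle (log2 fold change -0.39, SE 0.08, edgeR adjusted p = 0.000775). Dhcr7, which carries out the last reduction to cholesterol, went from 43.1, 41.7 and 43.1 CPM to 31.8, 30.5 and 33.3 CPM. The spread within its groups was small beside the difference, and it too fell to 76.1% (SE 0.07, edgeR adjusted p = 0.00019). Cyp51, the lanosterol demethylase whose RNA is a common readout of SREBP activity, went from 74.3, 75 and 83.6 CPM to 63.7, 68.7 and 63.9 CPM and fell to 82.5% (edgeR adjusted p = 0.00414). Sc5d, a sterol desaturase, went from 22.3, 25.1 and 24 CPM to 19.3, 21 and 19.9 CPM and fell to 82.9% (edgeR adjusted p = 0.0182). Its edgeR adjusted p was 0.0943 without vehicle replicate 2 and 0.0672 without vehicle replicate 3. DESeq2 called neither Cyp51 nor Sc5d (adjusted p = 0.0773 and 0.425).

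Ebp, the sterol isomerase, was at 27.8, 30.7 and 30.6 CPM in vehicle and at 20.5, 36.3 and 25.2 CPM in 4OHT samples. The deep 4OHT libraries were below all vehicle samples and the shallow one, with 19 reads, was above them. Ebp was called lower at 78% (edgeR adjusted p = 0.00867), and not without 4OHT replicate 1 (0.0835). DESeq2 did not call Ebp (adjusted p = 0.422). Nsdhl and Hsd17b7, which act with Msmo1 in removing methyl groups, did not pass, with log2 fold changes of -0.04 (95% interval -0.21 to 0.13) and -0.03 (-0.18 to 0.13). Their deep 4OHT libraries, at 23.9 and 24.8 CPM for Nsdhl and 26.8 and 27.8 CPM for Hsd17b7, lay within or beside vehicle values of 23.8 to 25.8 and 27.2 to 28 CPM. Tm7sf2, a sterol reductase gene, was low, at 3.36, 3.09 and 3.16 CPM against 2.23, 5.73 and 3.43 CPM, and did not pass (log2 fold change -0.23, edgeR adjusted p = 0.401). Without 4OHT replicate 1 its log2 fold change was 0.11, and without 4OHT replicate 3 it was -0.51 (edgeR adjusted p = 0.0385).

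**Figure D3:**
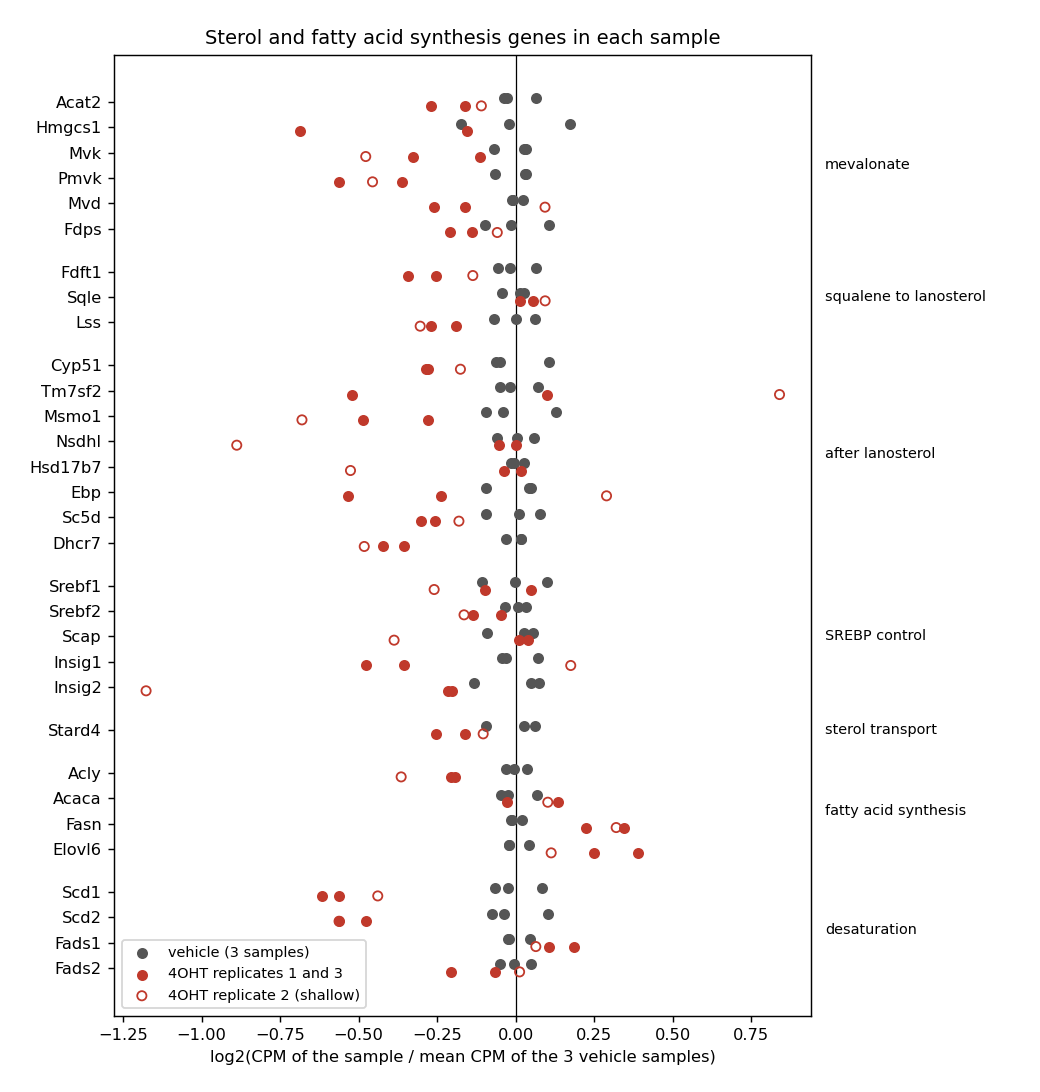
Each sample's CPM is plotted for the 31 genes as log2 of its ratio to the vehicle mean, in grey for the 3 vehicle samples and red for 4OHT, with the shallow 4OHT replicate 2 as open circles; Hmgcs1 had 0 reads there and has no open circle. The red points of Pmvk, Msmo1, Dhcr7, Scd1 and Scd2 lie left of all grey points, those of Fasn and Elovl6 lie right of them, and the open circle strays most for genes with few reads.

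Of the SREBP control genes, Insig1 fell while the factors and SCAP did not pass. Insig1 encodes the sterol-sensitive retention protein and is itself a SREBP target. Its values were 52.5, 53 and 56.9 CPM in vehicle and 38.9, 61.1 and 42.3 CPM in 4OHT replicates 1 to 3. The deep 4OHT libraries lay below all vehicle samples and the shallow one, with 32 reads, above them. It was called lower at 76.3% of vehicle (log2 fold change -0.39, SE 0.08, edgeR adjusted p = 0.000848; DESeq2 adjusted p = 0.116). Insig2, its paralogue, went from 23.7, 26.9 and 27.4 CPM to 22.4, 11.5 and 22.6 CPM and did not pass (edgeR adjusted p = 0.0836). It passed when replicate number was blocked (edgeR adjusted p = 0.0488), when vehicle replicate 1 was left out (0.0305) and when 4OHT replicate 3 was (0.0451).

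Srebf2, whose product favours sterol genes, was at 228, 224 and 218 CPM in vehicle and 203, 199 and 216 CPM in 4OHT samples. The groups did not overlap, but the log2 fold change of -0.1 did not pass (95% interval -0.22 to 0.02, edgeR adjusted p = 0.251). Srebf1, whose product favours fatty acid genes, was at 51.4, 47.9 and 44.6 CPM against 49.7, 40.1 and 44.9 CPM (log2 fold change -0.03, 95% interval -0.18 to 0.12). Scap was at 35.1, 38.9 and 38.1 CPM against 37.7, 28.6 and 38.4 CPM (0.02, -0.13 to 0.17). The signs of the Srebf1 and Scap estimates turned under other settings, so no direction can be given for them. RNA levels do not show how much SREBP protein was processed. Stard4, a cytosolic sterol carrier, went from 46.1, 51.3 and 50.1 CPM to 41.3, 45.8 and 44 CPM without overlap and was called lower at 87.2% (edgeR adjusted p = 0.0442). That call was lost without vehicle replicate 2 or 3 (0.172 and 0.152) and without 4OHT replicate 1 or 2 (0.149 and 0.0544). DESeq2 did not call Stard4 (adjusted p = 0.45).

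The fatty acid enzymes moved in both directions: of 8 measured, 3 fell, 2 rose and 3 did not pass. Scd1 and Scd2, the desaturases that make monounsaturated fatty acids, had the largest changes of all members that passed. Scd1 stood at 96.6, 99.4 and 107 CPM in vehicle and 65.9, 74.5 and 68.4 CPM in 4OHT samples. No values overlapped, and it fell to 66.9% (log2 fold change -0.58, SE 0.06, edgeR adjusted p = 1.06e-06). Scd2 stood at 523, 509 and 576 CPM and then at 363, 363 and 385 CPM. It fell to 69.5% (log2 fold change -0.53, SE 0.06, edgeR adjusted p = 2.95e-06). Both genes lie in a run on chromosome 19 in the RefSeq gene order, Scd3, Scd2, Scd4 and Scd1, so that Scd4 stands between them. Scd3 did not pass (2.06 ± 0.272 and 1.13 ± 0.977 CPM, log2 fold change -0.25), and Scd4, at 0.0687 and 0.0183 CPM, was too low to test. In the shallow library Scd3 had 0 reads, and in 4OHT replicates 1 and 3 it stood at 1.72 and 1.67 CPM.

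Fasn, the fatty acid synthase, and Elovl6, which lengthens its palmitate product, rose. Fasn was at 706, 689 and 691 CPM in vehicle and at 813, 869 and 884 CPM in 4OHT samples. Each 4OHT sample was above each vehicle sample, 1.23-fold by the model (log2 fold change 0.29, SE 0.06, edgeR adjusted p = 0.000782). Elovl6 went from 202, 193 and 193 CPM to 257, 212 and 233 CPM, again without overlap and 1.23-fold (SE 0.06, edgeR adjusted p = 0.00175). Acly, the citrate lyase that supplies cytosolic acetyl-CoA to both routes, went the other way, from 428, 421 and 441 CPM to 373, 334 and 376 CPM. It fell to 85.5% with no overlap (log2 fold change -0.23, SE 0.06, edgeR adjusted p = 0.00823). Acaca, acetyl-CoA carboxylase and the committed step of the route, stood at 45.4, 44.7 and 48.4 CPM against 50.7, 49.6 and 45.3 CPM and did not pass (log2 fold change 0.06, 95% interval -0.08 to 0.21); without 4OHT replicate 1 the estimate was -0.02. The gene Gm5182 matches much of the Acaca transcript, so part of its reads may belong to that copy.

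The desaturases of polyunsaturated fatty acids, Fads1 and Fads2, did not pass. Fads1 was at 54, 53.9 and 56.6 CPM in vehicle and 59, 57.3 and 62.3 CPM in 4OHT samples, all of the latter above all of the former, but did not pass (log2 fold change 0.14, edgeR adjusted p = 0.118). Fads2, its neighbour on chromosome 19, was at 47, 45.2 and 43.9 CPM against 39.4, 45.8 and 43.4 CPM and did not pass (-0.13, edgeR adjusted p = 0.19; 0.0369 without 4OHT replicate 3). The intervals of Fads1 (0.01 to 0.27) and Fads2 (-0.28 to 0.01) both exclude a change of the size seen for Scd1, whose own interval was -0.72 to -0.45.

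Levels were compared between genes per kb of exon, using GENCODE vM21 gene models. In vehicle cells the highest were Scd2 (98.3 ± 6.48 CPM per kb), Acly (93.3 ± 2.2) and Fasn (69.2 ± 0.925; SD, n = 3 each). In 4OHT cells this order was turned around, with Fasn at 85.1 ± 3.72, Acly at 78.3 ± 5.08 and Scd2 at 67.9 ± 2.33 CPM per kb. By sample, Scd2 was at 95.9, 93.3 and 106 CPM per kb beside 70.2, 68.6 and 68.8 for Fasn in vehicle, and at 66.5, 66.5 and 70.6 beside 80.9, 86.5 and 88 in 4OHT cells. Thus Scd2 was above Fasn in all 3 vehicle samples and below it in all 3 4OHT samples. Acly and Scd2 lay within about 1 SD of each other in vehicle cells, and Fasn and Acly had the same value, 80.9 CPM per kb, in 4OHT replicate 1. Next came Fdps, Srebf2 and Sqle at 52.1, 44 and 37.7 CPM per kb in vehicle cells. Tm7sf2 was low at 1.89. The Hmgcs1 reads gave 0.177 CPM per kb, but how this locus was counted could not be checked, so that value is not taken as its expression level.

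**Figure D4:**
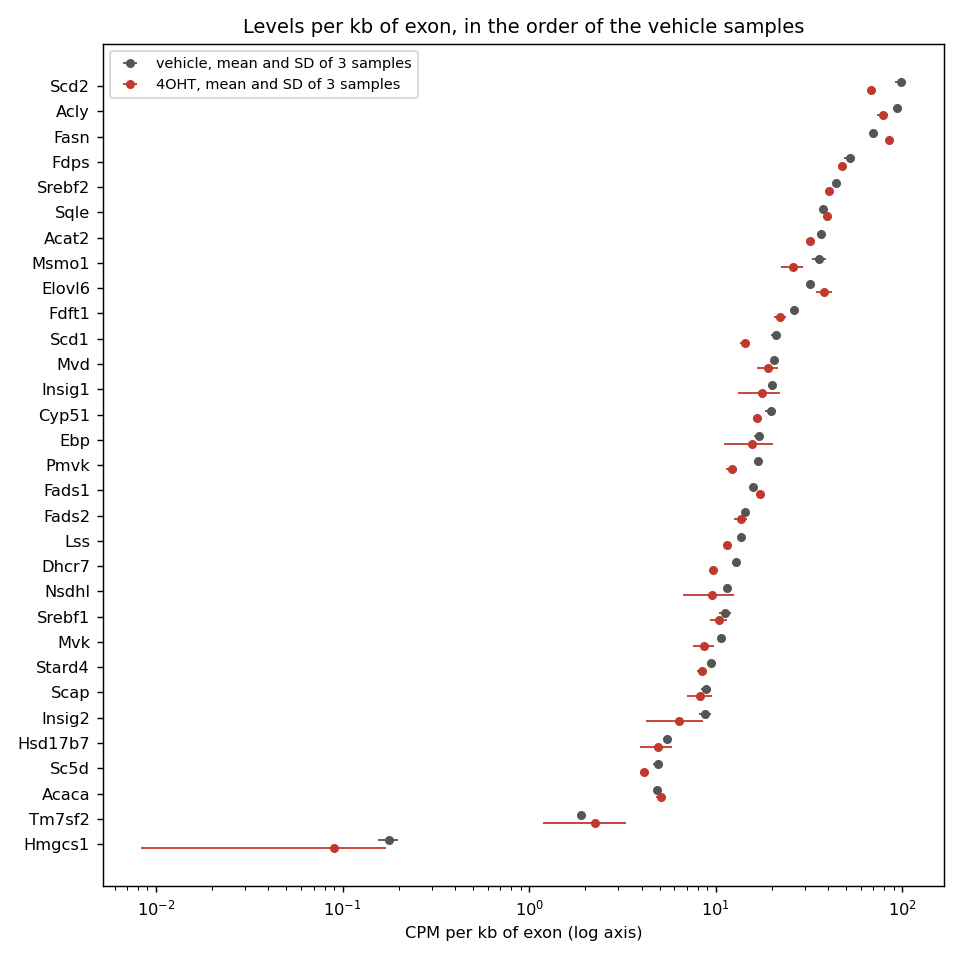
Mean CPM per kb of exon with its SD (3 samples) is plotted on a log axis for vehicle (grey) and 4OHT (red), with genes in the order of the vehicle level. Scd2, Acly and Fasn lead in both groups, with Scd2 highest in vehicle (98.3) and Fasn highest in 4OHT (85.1); the Hmgcs1 point (0.177) rests on few reads at a locus whose counting could not be checked.

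Other lipid genes were called about as often as genes at large. Over 7 further lists, 171 genes were tested, 18 were higher and 20 lower, which is 22.2% called beside 22.4% of all tested genes, with a median log2 fold change of -0.01. These counts moved with the samples used: 8 were higher without vehicle replicate 2, and 31 were lower without 4OHT replicate 3. Among other sterol synthesis and uptake genes 1 of 17 rose and 3 fell, with a median of -0.13 (2 rose without 4OHT replicate 1, and 5 fell without 4OHT replicate 3). With replicate number blocked 7 of the 17 fell and 1 rose. Hspg2, a heparan sulfate proteoglycan of basement membranes that can take up lipoproteins, rose (385 ± 44.7 CPM in vehicle, 676 ± 21.6 CPM in 4OHT cells, log2 fold change 0.81). Lrp1, an endocytic receptor for lipoproteins, fell (93.1 ± 6.32 against 56.3 ± 2.98 CPM, -0.7).

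In the isoprenoid branches, which leave the route at farnesyl diphosphate, 1 of 20 genes passed: Dolpp1 of dolichol metabolism fell (log2 fold change -0.29, edgeR adjusted p = 0.0108; 0.0568 without vehicle replicate 3 and 0.0807 without 4OHT replicate 1). Without 4OHT replicate 1 the branches had 2 rises, and without 4OHT replicate 3 they had 4 falls. DESeq2 called none of the 20. Of 19 genes for SREBP processing and partners 3 rose and 1 fell, Pgrmc1, a haem-binding membrane protein (log2 fold change -0.4, edgeR adjusted p = 7.99e-05); 2 fell without 4OHT replicate 1, and 2 in the blocked fit. The rises were small, those of Crebbp (0.27) and Ep300 (0.17), both acetyltransferases that act as coactivators, and of Mbtps2 (0.19), a protease that frees SREBPs. DESeq2 called none of the 3. In edgeR, leaving out vehicle replicate 2 gave adjusted p = 0.0662 for Crebbp, 0.232 for Ep300 and 0.205 for Mbtps2, and leaving out vehicle replicate 3 gave 0.0507, 0.147 and 0.125. The calls of Ep300 (0.0581) and Mbtps2 (0.0621) were also lost without vehicle replicate 1, and those of Crebbp (0.0524) and Ep300 (0.0552) without 4OHT replicate 1. Exons of Yy2 overlap 36.1% of those of Mbtps2. The genes Nfya, Nfyb and Nfyc, picked after their values were seen, encode NF-Y and did not pass (log2 fold changes 0.01, 0.03 and 0.07).

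For sterol efflux, storage and LXR response 4 of 27 rose and 1 fell (median 0.08); without vehicle replicate 2 there were 2 rises, and without 4OHT replicate 1 or 3 there were 2 or 3 falls. Abcg1, a sterol exporter and LXR target, fell (12.7 ± 0.537 CPM in vehicle, 8.23 ± 0.727 CPM in 4OHT cells, log2 fold change -0.59), whereas Abca1, another LXR target picked after its values were seen, was at 10.4 ± 0.442 and 12.1 ± 1.08 CPM and did not pass (0.27). Apoe, a lipoprotein component, rose (310 ± 9.6 against 365 ± 23.4 CPM, 0.21, edgeR adjusted p = 0.0151; 0.0778 without vehicle replicate 2 and 0.0895 without vehicle replicate 3). Cyp7b1, an oxysterol hydroxylase, rose as well (0.949 ± 0.0873 against 2.6 ± 1.1 CPM, 1.14), with 2 reads in the shallow library. Nceh1, a cholesteryl ester hydrolase, was called higher (0.47). It had 11.5 CPM from 6 reads in the shallow library and 21.1 and 22.9 CPM in the deep 4OHT ones, beside 15.4 to 16.2 CPM in vehicle. DESeq2 did not call Abcg1, Cyp7b1 or Nceh1 (adjusted p = 0.0773, 0.241 and 0.257).

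Among other fatty acid synthesis genes 2 of 33 rose and 6 fell (median -0.07). Acsl5 and Acsl1, which activate fatty acids with coenzyme A, fell (-0.71 and -0.31). So did Acacb, an acetyl-CoA carboxylase tied to control of fatty acid oxidation (-0.42). DESeq2 did not call Acsl1 or Acacb (adjusted p = 0.107 and 0.165). Pnpla3, a lipid droplet protein and SREBP target in liver, rose (6.76 ± 0.261 against 12.4 ± 1.01 CPM, log2 fold change 0.83, edgeR adjusted p = 4.02e-06). Only 1 gene of this list rose without vehicle replicate 1, 2 or 3 or 4OHT replicate 3, and 3 fell without vehicle replicate 3.

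In fatty acid oxidation 4 of 26 rose and 1 fell (median 0.04). Slc25a20 and Cpt1a, which carry fatty acids into mitochondria as carnitine esters, both rose: Slc25a20 was at 56 ± 1.95 and 78.7 ± 3.7 CPM (log2 fold change 0.53), and Cpt1a at 81.8 ± 4.86 and 105 ± 3.38 CPM (0.38). Hadh, a dehydrogenase of the oxidation spiral, rose as well (0.46). Acadl, a long-chain acyl-CoA dehydrogenase, was called lower by edgeR (-0.33) but not by DESeq2 (adjusted p = 0.163). Without 4OHT replicate 1 the list had 7 rises and 2 falls, and without 4OHT replicate 3 it had 2 falls; the blocked fit gave 6 rises and 3 falls. In glycerolipid and phospholipid synthesis 4 of 29 rose and 7 fell, 37.9% of the list (median -0.04). Etnk1, an ethanolamine kinase, rose (184 ± 4.77 against 291 ± 8.39 CPM, 0.66, edgeR adjusted p = 4.43e-08). Its paralogue Etnk2 was called lower by edgeR (-0.47) but not by DESeq2 (adjusted p = 0.228). In the shallow library Etnk2 stood at 17.2 CPM from 9 reads, above all vehicle values. Chka and Pcyt1b, early enzymes of phosphatidylcholine synthesis, fell (-0.27 and -0.53), though DESeq2 did not call Chka (adjusted p = 0.052). Without vehicle replicate 2 this list had 1 rise, and DESeq2 called only 1 rise and 1 fall in it.

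**Figure D5:**
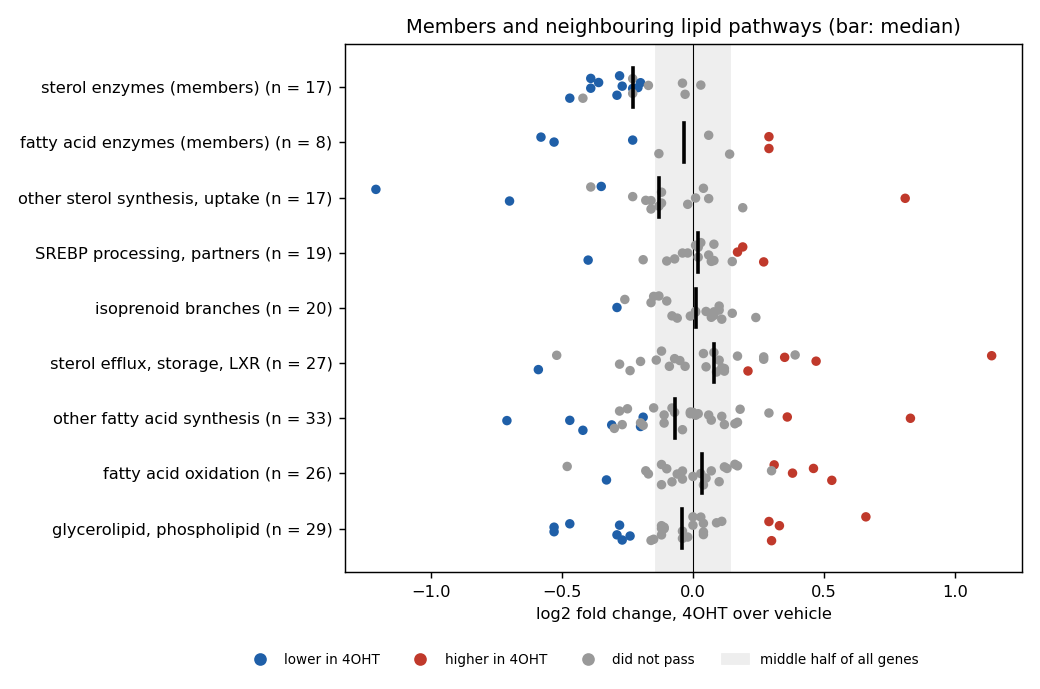
The log2 fold change of each tested gene is plotted for the sterol and fatty acid enzymes and for 7 neighbouring lipid lists, with a black bar at the median, blue for genes that fell, red for genes that rose, and a grey band between the quartiles of all tested genes (-0.14 to 0.14). Medians were -0.23 for the 17 sterol enzymes, -0.03 for the fatty acid enzymes and -0.13 to 0.08 for the 7 other lists; the band shows the spread of single genes and is no yardstick for a median.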

How the data were processed

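Polyadenylated RNA of 6 samples (3 per group) was sequenced; NEBNext Ultra kits made the libraries, per the labels' protocols. The deposited table gives read counts per gene symbol as whole numbers, taken as not normalized because the library totals differ; STAR, DESeq and mm9 are named without versions or roles in the submitters' processing notes, while the counting tool, its annotation and whether strand was used are not given in the sources. Values of genes that overlap others on the opposite strand may therefore be mixed. The test was that of edgeR 4.0.16 (R 4.3.3): filterByExpr (minimum count 10) left 14458 genes, TMM factors were 0.979 to 1.017, and a quasi-likelihood model with a treatment term was fitted to all 6 samples. Intervals are at the 95% level, and the model weighs libraries by depth while mean CPM does not. P-values were adjusted by Benjamini-Hochberg over all tested genes (threshold 0.05). DESeq2 1.42.0 and limma 3.58.1 served for alternatives. The procedure was tested on simulated data, drawn independently for each sample with dispersions fitted to these counts. The outcome of that test is not reported here. That test does not cover correlation between same-numbered samples.

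The members and lists were chosen with earlier results of these data known, so the direction of the sterol genes is not independent support. Every member is named, and of each other lipid list up to 4 genes with the smallest adjusted p among those that passed; 2 genes under this rule are not reported here. Every same-numbered pair correlated positively: in 3632 genes above a log2 CPM of 6, correlations of their deviations from group means (across genes) were 0.57, 0.15 and 0.39 for replicates 1, 2 and 3, while the pair of vehicle 2 and 4OHT 3, of unlike number, gave 0.45. No label says what the numbers mark. The main fit has no block, and blocked values are printed where they change a named gene's call or move a list's count by over 1.5 times. No pair of libraries agreed within sampling noise (lowest chi-square per degree of freedom 1.18, for 4OHT replicates 2 and 3). That pair holds the shallow library, whose few reads leave differences hard to see. The deep 4OHT replicates 1 and 3 gave 17.3, beside 1.86 to 7.23 for pairs of vehicle libraries. Exon lengths, overlaps and near copies (blastn 2.17.0) come from GENCODE vM21 on GRCm38, and promoters from RefSeq on GRCm38.p6.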

Additional observations from a re-analysis of the deposited data

How the results depend on the processing

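The count of members higher in 4OHT was 2 under every alternative run. The count of lower members was 15, and it was 7 in DESeq2 with all libraries, 13 in DESeq2 without 4OHT replicate 2 (added after seeing the data), 11 with quantile normalization in limma-voom, 14 with no filter or with a mean count of at least 50, and 10 to 19 with 1 library left out. With the replicate number as a block 18 were lower, the added ones being Mvk, Fdps and Insig2, and no other member's call changed. The share of all genes called lower moved too, from 10.5% in the main fit. It was 1.9% in DESeq2, 5.35% in DESeq2 without 4OHT replicate 2, and 6.7% with quantile normalization. With no filter it was 8.17%, with a mean count of at least 50 it was 10.8%, and with the block 13.5%. With 1 library left out it was 7.76% to 13.9%. Other lipid genes higher in 4OHT numbered 18, and 10 with quantile normalization, 7 in DESeq2 and 8 to 24 with 1 library left out; those lower numbered 20, and 4 in DESeq2 and 16 to 31 with 1 library left out. The paired fit gave 23 and 30. Estimates that changed sign all belonged to members that did not pass. With 1 library left out Tm7sf2 ran from -0.51 to 0.11, Srebf1 from -0.11 to 0.03 (0.02 without vehicle replicate 1), Scap down to -0.04 and Acaca from -0.02 to 0.13, and Scap was at -0.01 in DESeq2. The cause of these differences was not tested, except that the DESeq2 count rose from 7 to 13 when the shallow library was left out. Few reads limit what can be said of Hmgcs1 and Tm7sf2 (that those of Hmgcs1 were few in deep libraries too was not explained by any test), and depth limits every member's value in 4OHT replicate 2.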
